A study of Mus musculus with 27 samples.

Results

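The comparison described here set dural macrophages of Rag1 ko mice given T cells lacking interleukin-22 against dural macrophages of Rag1 ko mice given no T cells. It was chosen by the names of the columns in the deposited table, and it holds 9 of the 27 libraries of the series, 3 with IL22 ko T cells (2 female, 1 male) and 6 without T cells (4 female, 2 male). All mice were B6, carried the Rag1 knockout and were 16-19 weeks old; the recipients were taken 6.5 weeks after IL22 ko T cell reconstitution and the mice without T cells at steady state. Because Rag1 is needed to rearrange the receptor genes of T and B cells, the host makes neither, so the only IL22-deficient cells were the transferred T cells and the macrophages carried intact Il22. The 5 libraries of mice given total T cells are used only where a level is set against transfer of unselected T cells. After perfusion, the macrophages were sorted from digested dura in bulk and their RNA was sequenced as unstranded reads of 75 nucleotides.

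The dura is the outer layer of the meninges and holds resident border-associated macrophages that take up antigen and present it to T cells on MHC class II. Interleukin-22 is a cytokine of T helper and innate lymphoid cells that signals through the receptor chains Il22ra1 and Il10rb to STAT3, mainly in epithelial and stromal cells. Interferon-gamma, another T-cell cytokine, raises antigen presentation, guanylate-binding proteins and Fc receptors in macrophages.

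The promoters of 4 genes discussed here are shown first, since 2 short motifs of interferon signalling can be read in them. They are Fcgr4 (chr1:171018676-171018975, plus strand) and Ctss (chr3:95526536-95526835, plus strand), each with the core of an interferon-stimulated response element, GAAANNGAA, in capitals, and Psmb8 (chr17:34197945-34198244, plus strand) and Serpina3g (chr12:104235897-104236196, plus strand), each with a gamma-activated sequence, TTCNNNGAA, in capitals. The sequences are RefSeq's, on GRCm38.p6, from 250 bases before to 50 after the start of transcription, and these 4 were picked because they hold a match.
Fcgr4: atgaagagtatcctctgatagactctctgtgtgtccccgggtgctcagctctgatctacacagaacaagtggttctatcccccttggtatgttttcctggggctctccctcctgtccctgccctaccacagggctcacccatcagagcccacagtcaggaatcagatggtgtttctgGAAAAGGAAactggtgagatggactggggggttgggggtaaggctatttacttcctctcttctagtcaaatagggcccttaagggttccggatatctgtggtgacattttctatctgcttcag
Ctss: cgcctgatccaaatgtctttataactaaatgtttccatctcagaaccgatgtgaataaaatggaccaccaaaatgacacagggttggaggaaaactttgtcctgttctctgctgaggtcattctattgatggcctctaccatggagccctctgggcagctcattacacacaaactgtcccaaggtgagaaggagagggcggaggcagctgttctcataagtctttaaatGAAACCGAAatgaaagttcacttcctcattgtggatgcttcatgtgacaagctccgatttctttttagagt
Psmb8: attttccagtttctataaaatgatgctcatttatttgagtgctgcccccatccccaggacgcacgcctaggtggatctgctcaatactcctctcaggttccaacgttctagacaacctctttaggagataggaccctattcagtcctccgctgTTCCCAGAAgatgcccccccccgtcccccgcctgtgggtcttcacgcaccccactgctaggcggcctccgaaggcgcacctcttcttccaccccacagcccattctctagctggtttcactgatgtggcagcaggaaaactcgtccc
Serpina3g: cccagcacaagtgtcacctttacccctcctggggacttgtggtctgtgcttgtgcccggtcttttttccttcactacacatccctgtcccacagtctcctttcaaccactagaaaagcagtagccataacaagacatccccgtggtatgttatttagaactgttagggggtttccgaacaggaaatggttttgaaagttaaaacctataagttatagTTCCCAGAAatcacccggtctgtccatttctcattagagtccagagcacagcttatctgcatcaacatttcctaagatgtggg
Both strands were searched. The capitals begin 73 bases before the start in Fcgr4, 21 before it in Ctss, 97 before it in Psmb8 and 33 before it in Serpina3g. Of 32851 promoters of this length, 8.30% held TTCNNNGAA, 8.56% held GAAANNGAA and 1.07% held both. Counted by gene, 9.55% of 27025 genes had the first and 9.76% the second. Of the 20 interferon-gamma response genes in the promoter table, 9 had the first and 15 the second; of 17 MHC class I genes, 2 and 5; of 8 MHC class II genes, 1 and 1; and of 5 Fc receptor genes, 1 and 1. The promoters of Tap1, Psmb9, H2-K1, H2-DMa and H2-DMb1 held neither motif in this window. A match describes the letters and is not evidence of binding.

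The 9 libraries held 7353139 to 17066408 counts and 14237 to 16611 genes with a count. They fell on 2 sides of a difference in ribosomal protein gene counts, for which the labels name no source and which crosses the groups only in part. The summed read counts scaled to library size (CPM) of ribosomal protein genes were 13450, 13166 and 14215 in the 3 libraries with IL22 ko T cells, all under 20000, while 2 of the libraries without T cells, both female, had 13272 and 13493 and the other 4 had 27575 to 31463. Of the 5 libraries with total T cells, 2 were on the low side and 3 on the high side. The main comparisons are therefore given against all 6 libraries without T cells and again against the 2 on the low side alone. The sex-linked genes followed the labelled sex, apart from traces: the Y-linked Ddx3y was at 107 CPM in the male and 0 in both female libraries with IL22 ko T cells, and at 102 and 85.1 CPM in the males and 0 in the females without T cells, apart from 5.28 CPM in the second female. Xist, expressed in females, was at 134 to 176 CPM in the females of both groups and 0.162 and 0 CPM in the males without T cells. In the male IL22 ko library it was at 6.20 CPM. The sorted cells carried macrophage genes: 13 of 13 defining markers were detected, summing to 26611 to 30231 CPM with IL22 ko T cells and 21692 to 25920 CPM without T cells. Of these 13, 5 had all 3 IL22 ko libraries above all 6 without T cells and 0 below, where 4.02% and 2.58% of all genes did. Against the 2 low-side libraries alone 7 lay above and 3 below, where 17.1% and 14.5% of all genes did. The part of this difference in the results below was not tested. Nothing in the labels states that each library came from a different animal, so a p-value here speaks only to the variation among the libraries, which may be technical. Libraries are numbered within each sex in file order, and fewer cells of a type cannot be told apart from less RNA per cell in bulk samples.

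Il22ra1, a receptor chain of interleukin-22, was not detected in these macrophages. Il22ra1 had 0 counts in all 9 libraries, which allows up to 3 counts per library. Il22ra2, the soluble decoy receptor, had 0 to 4 counts with IL22 ko T cells and 0 to 8 without T cells. Il10rb, the chain shared with the interleukin-10 receptor, was well expressed, at 230, 209 and 209 CPM in the libraries with IL22 ko T cells and 181 to 214 CPM in those without T cells, with a log2 fold change of 0.14 ± 0.14 (SE). Stat3 was at 220, 199 and 238 CPM with IL22 ko T cells and 145 to 234 CPM without T cells, and Socs3, the feedback inhibitor that STAT3 induces, at 1316, 1366 and 1516 CPM against 1311 to 1647 CPM. Neither passed the test, and the groups overlapped for both. The 14 measured members of the STAT3 list had a median log2 fold change of 0.17 against all 6 libraries and -0.06 against the 2 low-side ones, and none was called by edgeR or DESeq2. Il22 had 0 counts in every library of both groups, so the knockout of the donor T cells cannot be checked in these sorted macrophages.

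One gene passed the test across all genes. With edgeR's quasi-likelihood test and Benjamini-Hochberg adjustment, 1 of 12648 genes, 0.00791% of those tested, had an adjusted p under 0.05, and 1192, 9.42%, had an unadjusted p under 0.05, of which 651 (5.15%) were higher and 541 (4.28%) lower with IL22 ko T cells. Against the low-side libraries alone 0 genes passed, with 1045, 8.26%, at an unadjusted p under 0.05, while DESeq2 called 46 there. The number of calls against all 6 libraries depended on the tool and the samples fitted: DESeq2 called 144, and edgeR fitted to these 9 libraries alone called 42.

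The called gene was Fcgr4 (ENSMUSG00000059089, chr1:171018920-171029761, plus strand), which encodes an activating receptor for immunoglobulin G. Fcgr4 was at 381, 236 and 378 CPM in the 3 libraries with IL22 ko T cells, and at 131, 162, 115, 145, 111 and 139 CPM in the 6 without T cells. All 3 lay above all 6, and the 2 low-side libraries without T cells, at 115 and 145 CPM, lay within the range of the other 4, 111 to 162 CPM. The log2 fold change was 1.32 ± 0.20 (SE; adjusted p = 0.0115, edgeR). Against the low-side libraries alone it was 1.43 ± 0.25 (adjusted p = 0.0955, edgeR). The call was lost in female libraries only (log2 fold change 1.13, adjusted p = 0.292), without the first female IL22 ko library (1.21, adjusted p = 0.136), without the male IL22 ko library (1.14, adjusted p = 0.448), without the first male library lacking T cells (1.27, adjusted p = 0.0591) and in low-side libraries of all groups (1.42, adjusted p = 0.113). With total T cells Fcgr4 was at 354 to 578 CPM, and the difference between IL22 ko and total T cells, a log2 fold change of -0.50 ± 0.22, did not pass the test (adjusted p = 0.225, edgeR); with the ribosomal side as a term it was -0.20 (adjusted p = 0.867, edgeR).

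**Figure D1:**
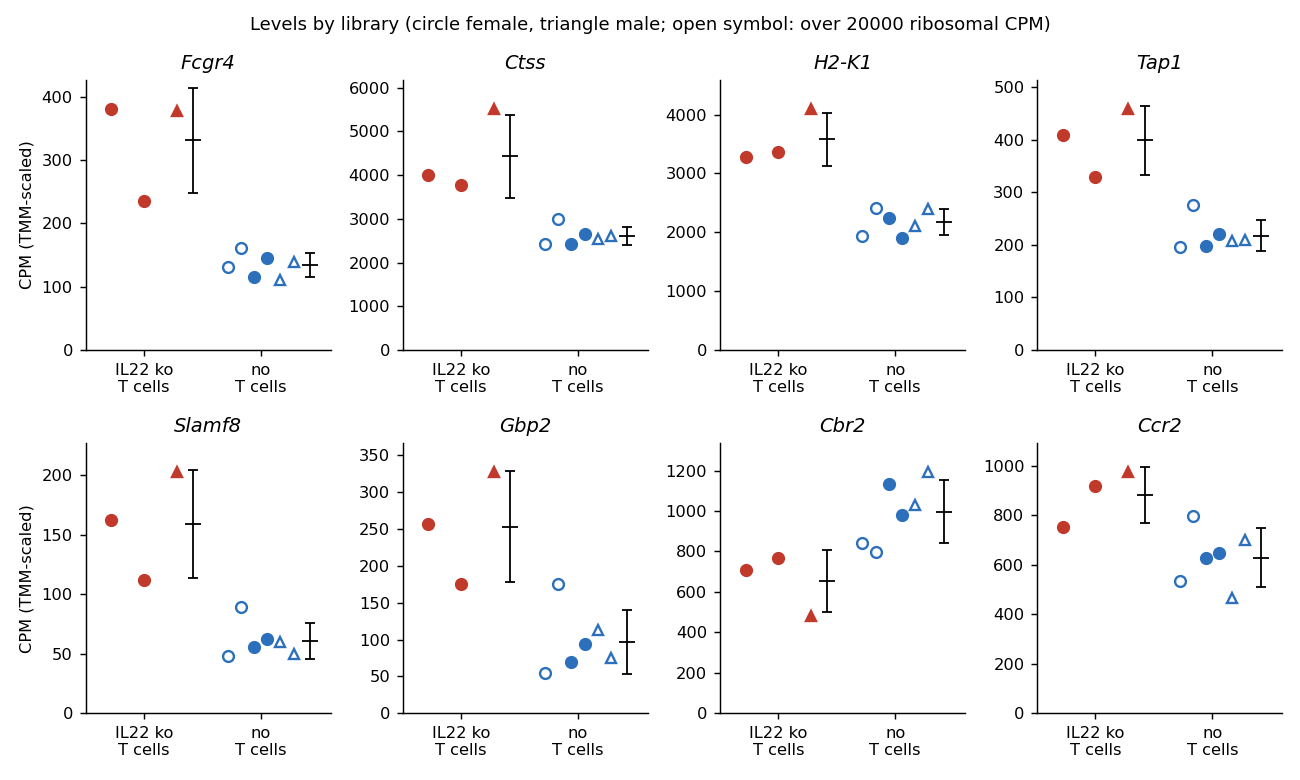
Levels of 8 genes in CPM scaled by TMM, one point per library, with IL22 ko T cells on the left and no T cells on the right (circles female, triangles male, open symbols libraries over 20000 ribosomal CPM); black bars are the mean and SD. The IL22 ko libraries lie above all 6 others for Fcgr4, Ctss, H2-K1, Tap1, Slamf8 and Gbp2, below them for Cbr2, and overlap them for Ccr2.

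Since the adjusted test made a single call, groups of genes are described by how many members had all 3 IL22 ko libraries outside the range of the 6 libraries without T cells. Of all 12648 genes, 509 had all 3 above, 4.02%, and 326 all 3 below, 2.58%. Scaling by library total alone shifted the median log2 difference by -0.11 and turned the split to 260 above and 628 below, so a direction is read here relative to the TMM scaling and the count under library totals is added for the main groups. The lists were described by these counts and by their medians, beside a median of -0.00 over all genes.

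All 5 Fc receptor genes had the IL22 ko libraries above every library without T cells, against 4.02% of all genes, and 3 did under library totals. Their median log2 fold change was 0.40, and 0.33 against the low side. After Fcgr4 the largest was that of Fcgr2b, the inhibitory receptor, at 681, 672 and 1158 CPM with IL22 ko T cells and 523 to 669 CPM without T cells (log2 fold change 0.49 ± 0.14, adjusted p = 0.167, edgeR). The highest library without T cells and the lowest with IL22 ko T cells were nearly equal. Fcgr1, the high-affinity receptor, was at 546, 550 and 554 CPM against 385 to 504 CPM, and Fcer1g, the signalling chain of the activating receptors, at 1113, 951 and 1112 CPM against 720 to 865 CPM. Fcgr3, an activating receptor whose extracellular part closely resembles that of Fcgr2b, was at 967, 964 and 1116 CPM against 729 to 905 CPM. Of these, only Fcgr4 passed the test.

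MHC class I genes and their peptide-processing partners were mostly higher in the IL22 ko libraries. Of 20 members, 18 had all 3 IL22 ko libraries above all 6 without T cells, the exceptions being H2-T22 and Psme2, and 14 did under library totals. With edgeR none was called and 16 had an unadjusted p under 0.05, all higher, where 5.15% of all genes did. DESeq2 called B2m, H2-D1, H2-K1, Psmb8 and Tap1, against 1.14% of all genes. The median log2 fold change was 0.53. Against the 2 low-side libraries alone all 20 lay above, where 17.1% of all genes did, and the median was 0.54. H2-K1, a classical class I heavy chain, was at 3273, 3360 and 4100 CPM with IL22 ko T cells and at 1945, 2408, 2245, 1895, 2115 and 2398 CPM without T cells (log2 fold change 0.72 ± 0.16, adjusted p = 0.111, edgeR). Of the low-side libraries without T cells, the one at 2245 CPM lay within the range of the high-side ones and the one at 1895 CPM was the lowest of the 6. H2-D1, the other classical heavy chain of this strain, was at 3928, 4080 and 4677 CPM against 2784 to 3459 CPM, and B2m, the light chain, at 4630, 4517 and 5313 CPM against 3053 to 3653 CPM.

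Genes of peptide supply had the same order. Tap1, a subunit of the transporter that brings peptides into the endoplasmic reticulum, was at 409, 329 and 459 CPM with IL22 ko T cells and 196, 275, 199, 221, 208 and 209 CPM without T cells (log2 fold change 0.87 ± 0.22, adjusted p = 0.141, edgeR). Psmb8, a catalytic subunit of the immunoproteasome, was at 331, 322 and 398 CPM against 184 to 241 CPM, and Nlrc5, the transactivator of class I genes, at 36.7, 44.2 and 39.7 CPM against 22.2 to 29.4 CPM. With total T cells Tap1 was higher still, at 415 to 975 CPM, and its difference between IL22 ko and total T cells was -0.85 ± 0.24 on the log2 scale (adjusted p = 0.0704, edgeR). With the ribosomal side as a term the median of the class I list against total T cells was -0.23. In that fit 1 of 20 was lower at an unadjusted p under 0.05 (edgeR), against 3.56% of all genes, and 0 were higher. H2 genes share long stretches of sequence, so reads may have been split or lost between them, and values of a single H2 gene are uncertain to that extent.

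Of the 11 MHC class II genes, 8 had all 3 IL22 ko libraries above all 6 without T cells, also under library totals; H2-Oa, H2-Ob and H2-DMb2 did not. With edgeR none was called and 7 had an unadjusted p under 0.05, all higher, where 5.15% of all genes did. DESeq2 called Ctss and H2-DMb1, against 1.14% of all genes. The median log2 fold change was 0.69, and 0.84 against the low side. Ctss, the protease that trims the invariant chain, was at 4006, 3775 and 5519 CPM with IL22 ko T cells and at 2433, 2989, 2436, 2645, 2547 and 2611 CPM without T cells (log2 fold change 0.76 ± 0.14, adjusted p = 0.0646, edgeR). H2-Ab1, the beta chain of the presenting molecule, was at 14710, 15043 and 17208 CPM against 8678 to 10410 CPM. Cd74, the invariant chain itself, was at 29137, 29519 and 32125 CPM against 18147 to 22775 CPM. H2-DMa and H2-DMb1 form the dimer that loads peptide; H2-DMa was at 1001, 1011 and 1159 CPM against 619 to 755 CPM, and H2-DMb1 at 642, 641 and 728 CPM against 378 to 477 CPM. Ciita, the master regulator of class II genes, was at 180, 169 and 192 CPM against 91.3 to 160 CPM, with a log2 fold change of 0.51 ± 0.29. Relative to total T cells the median of the list was -0.04, and 0 of 11 members had an unadjusted p under 0.05, where 17.3% of all genes did.

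The interferon-gamma response list had a median log2 fold change of 0.87, and 1.01 against the low side. Of 27 measured members 12 lay above without overlap, against 4.02% of all genes, and 9 did under library totals. Against the low-side libraries alone 21 did, against 17.1% of all genes. In each case 0 lay below. Gbp5, Gbp6 and Ido1 were not measured. With edgeR none was called and 15 had an unadjusted p under 0.05, all higher, where 5.15% of all genes did. DESeq2 called 5 of the 27, against 1.14% of all genes. Serpina3g, a protease inhibitor, was at 94.6, 31.8 and 91.6 CPM with IL22 ko T cells and at 13.7, 31.0, 18.0, 14.0, 14.1 and 14.2 CPM without T cells (log2 fold change 2.04 ± 0.41, adjusted p = 0.0666, edgeR). Here the second female IL22 ko library barely exceeded the second female library without T cells. Those same libraries decided other members as well. Cxcl9, a chemokine for CXCR3-bearing T cells, was at 336, 103 and 410 CPM against 142 CPM in the second female library without T cells and 17.2 to 45.1 CPM in the other 5, and Gbp2, a guanylate-binding protein, at 257, 176 and 327 CPM against 175 CPM in that same library and 54.5 to 113 CPM in the other 5. Without the second female IL22 ko library 18 members lay above without overlap, and without the second female library lacking T cells 16 did. Of all 12648 genes, 1045 and 688 did in these settings.

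Other guanylate-binding and immunity-related GTPases gave the same order. Gbp4 was at 28.6, 18.4 and 30.7 CPM with IL22 ko T cells, 3.77 to 16.2 CPM without T cells and 34.0 to 158 CPM with total T cells, so that the IL22 ko libraries lay between the others without overlap, as for 21 genes in all, 0.166%. Igtp was at 132, 80.5 and 115 CPM with IL22 ko T cells and 42.3 to 78.3 CPM without T cells. Slamf8, a cell-surface protein of macrophages that interferon-gamma induces, was at 162, 112 and 203 CPM against 48.0 to 89.3 CPM. The Gbp genes lie in clusters of close copies, so single values are uncertain. Relative to total T cells 26 of the 27 members had a negative log2 fold change, with a median of -0.66; edgeR called none, and 16 had an unadjusted p under 0.05, all lower, where 9.17% of all genes did. With the ribosomal side as a term the median was -0.37 and 0 members had an unadjusted p under 0.05 (edgeR). Of all genes, 4.45% were higher and 3.56% lower at that limit. The mean log2(CPM + 1) of the list was 5.63 to 6.36 with IL22 ko T cells, 5.92 and 6.63 in the low-side libraries with total T cells and 6.69 to 7.90 in the high-side ones, so that 1 of the low-side libraries with total T cells lay within the IL22 ko range. Ifng itself had 0 to 2 counts with IL22 ko T cells and 0 to 1 without T cells.

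Some T-cell transcripts were counted in both groups. Cd3e, a chain of the T-cell receptor complex, had 3, 4 and 9 counts in the libraries with IL22 ko T cells and 0 to 3 in those without T cells. The 12 T-cell markers summed to 160 to 236 CPM with IL22 ko T cells and 83.2 to 183 CPM without T cells, with Cd8b1 at 0 in all libraries with IL22 ko T cells and Cd3g, Trac, Trbc1 and Trbc2 at 0 in all libraries without T cells. Only 2 of the 12, Cd4 and Il7r, passed the filter of a mean count of at least 10. With total T cells the sum was 44.9 to 150 CPM, which overlaps that without T cells, so the sum does not measure transferred T cells. The part of these transcripts in the results was not tested.

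**Figure D2:**
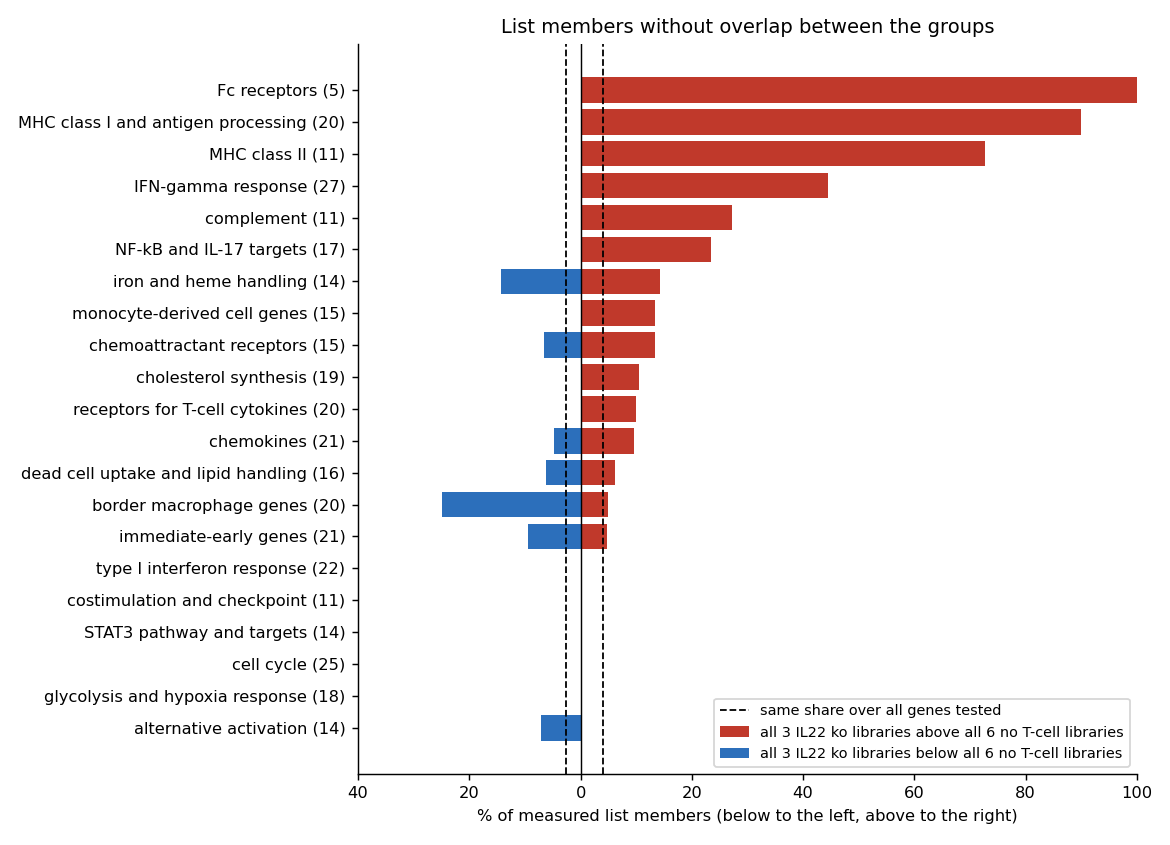
For each of 21 gene lists (number of measured members in brackets), the percentage of members with all 3 IL22 ko libraries above all 6 libraries without T cells (red, to the right) or below all 6 (blue, to the left); dashed lines mark the same shares over all genes, 4.02% and 2.58%. The Fc receptor, MHC class I, MHC class II and interferon-gamma lists have the longest red bars.

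Type I interferon genes overlapped between the groups. Of 22 members, 0 lay above and 0 below without overlap, and the median log2 fold change was -0.16, and -0.11 against the low side. Oas2, an antiviral enzyme, was at 45.5, 39.1 and 24.5 CPM with IL22 ko T cells and 39.7 to 56.0 CPM without T cells (log2 fold change -0.45 ± 0.20, adjusted p = 0.468, edgeR). Ifit3, which binds foreign RNA ends with its partners, was at 57.6, 50.6 and 39.8 CPM against 52.4 to 106 CPM. The male IL22 ko library was the lowest for both. Without the first female IL22 ko library 4 members lay below without overlap, where 540 of all 12648 genes did.

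Of 20 border macrophage genes, Lyve1, Cbr2, Gas6, Ccl24 and Maf had all 3 IL22 ko libraries below all 6 without T cells, Ms4a7 had them above, and edgeR and DESeq2 called none; the median log2 fold change was -0.41, and -0.59 against the low side. Against the 2 low-side libraries alone 15 members lay below and 2 above, where 14.5% and 17.1% of all genes did. There 9 had an unadjusted p under 0.05 (edgeR), all lower, where 2.96% of all genes did. With the ribosomal side as a term the median was -1.02, and 15 had an unadjusted p under 0.05 (edgeR), all lower (5.19% of all genes). Without the second female IL22 ko library 9 members lay below all 6, where 734 of all 12648 genes did. Cbr2, a carbonyl reductase, was at 708, 770 and 481 CPM with IL22 ko T cells and at 843, 799, 1132, 981, 1028 and 1192 CPM without T cells (log2 fold change -0.63 ± 0.32, adjusted p = 0.568, edgeR). Lyve1, a hyaluronan receptor, was at 82.5, 106 and 33.7 CPM against 107 to 203 CPM, with the highest and lowest libraries of the groups nearly equal. The male IL22 ko library was the lowest for both. Ms4a7 was at 485, 455 and 480 CPM against 288 to 374 CPM. Of 15 monocyte-derived genes, Itgal and Ms4a4c lay above without overlap and the median was 0.31, and 0.54 against the low side. Against the 2 low-side libraries alone 6 of them lay above and 1 below, where 17.1% and 14.5% of all genes did. There 2 had an unadjusted p under 0.05 (edgeR), all higher (5.31% of all genes). With the ribosomal side as a term their median was 0.74. In that fit 5 had an unadjusted p under 0.05 (edgeR), all higher (6.86% of all genes). Itgal, an integrin chain of leukocytes, was at 103, 87.7 and 176 CPM against 44.2 to 82.1 CPM. Ccr2, the chemokine receptor that brings monocytes into tissue, was at 754, 916 and 975 CPM with IL22 ko T cells and at 533, 796, 628, 648, 467 and 702 CPM without T cells, which overlap.

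Against total T cells the values of both lists went with the ribosomal side in part. All 20 border macrophage genes had a positive log2 fold change of IL22 ko over total T cells, with a median of 0.92 and 16 at an unadjusted p under 0.05 (8.17% of all genes), and all 15 monocyte-derived genes a negative one, with a median of -2.27 and 13 at an unadjusted p under 0.05 (9.17% of all genes). None of either list was called by edgeR. With the ribosomal side as a term the medians were 0.58 and -1.53. There 6 border genes were higher and 7 monocyte-derived genes lower at an unadjusted p under 0.05 (edgeR), against 4.45% and 3.56% of all genes. The mean log2(CPM + 1) of the border list was 8.22 to 8.71 with IL22 ko T cells, 8.19 and 8.24 in the low-side libraries with total T cells and 6.46 to 7.48 in the high-side ones. That of the monocyte list was 5.31 to 6.60 with IL22 ko T cells, 6.77 and 7.03 in the low-side libraries with total T cells and 7.76 to 9.25 in the high-side ones. Itgal, for example, was at 106 to 448 CPM and Cbr2 at 118 to 558 CPM with total T cells. F10, a clotting factor on the monocyte-derived list, was at 3.44, 4.40 and 65.0 CPM with IL22 ko T cells. There the male library stood alone. F10 was at 17.6 to 323 CPM with total T cells and at 1.39 to 13.9 CPM without T cells. Across all genes 11 were called between IL22 ko and total T cells, 0.0870%, and 1 with the ribosomal side as a term. Both comparisons share the IL22 ko libraries and are set side by side for that reason only.

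**Figure D3:**
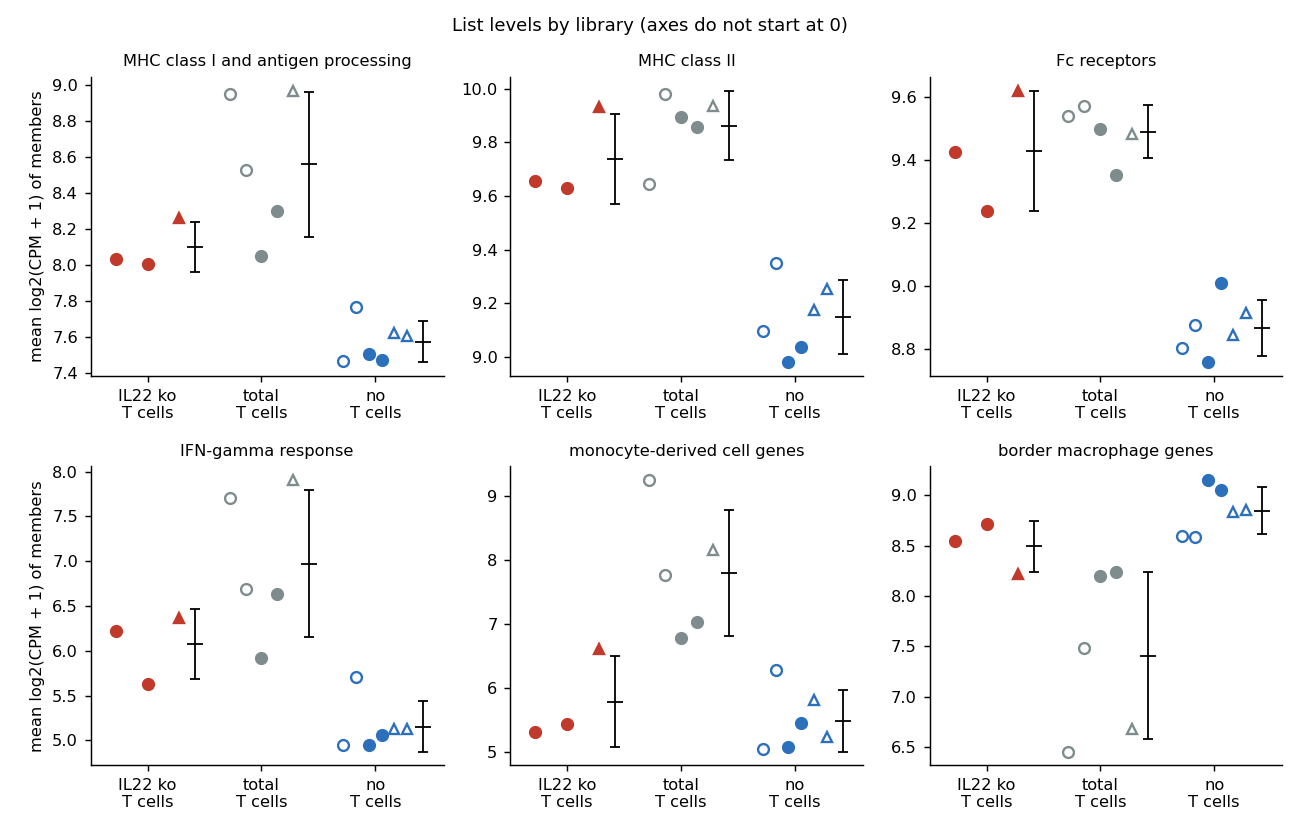
Mean log2(CPM + 1) over the members of 6 lists, one point per library, for IL22 ko T cells, total T cells and no T cells (circles female, triangles male, open symbols libraries over 20000 ribosomal CPM); black bars are the mean and SD, and the axes do not start at 0. The interferon-gamma list had 5.63 to 6.36 with IL22 ko T cells, 5.92 to 7.90 with total T cells and 4.95 to 5.70 without T cells, and the MHC class II list 9.63 to 9.93 with IL22 ko T cells, 9.65 to 9.98 with total T cells and 8.98 to 9.35 without T cells.

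Among chemokines Ccl8 and Cxcl13 had the smallest p. DESeq2 called both and Cxcl16, against 1.14% of all genes, where edgeR called none. Ccl8, which attracts monocytes and T cells, was at 650, 575 and 1334 CPM with IL22 ko T cells and at 126, 239, 224, 267, 281 and 369 CPM without T cells (log2 fold change 1.77 ± 0.36, adjusted p = 0.0692, edgeR). Every IL22 ko library was above every library without T cells. Cxcl13, the B-cell chemoattractant, was at 38.0, 15.1 and 74.6 CPM against 16.8 CPM in the second male library and 1.21 to 4.42 CPM in the other 5 (3.23 ± 0.69, adjusted p = 0.0926, edgeR), so the groups overlapped. Ccl8 was at 248 to 1184 CPM and Cxcl13 at 17.9 to 91.9 CPM with total T cells, and the log2 fold changes of IL22 ko over total T cells were 0.29 ± 0.39 and 0.01 ± 0.81. Cxcl16, a membrane-bound chemokine and scavenger receptor, was at 480, 406 and 610 CPM with IL22 ko T cells and 235 to 349 CPM without T cells. Ccl24, an eosinophil attractant, ran the other way, at 38.4, 52.1 and 25.1 CPM against 54.4 to 126 CPM. Over the 21 chemokines 2 lay above and 1 below without overlap, and the median was 0.35. Against the low-side libraries alone 7 lay above and 8 below, where 17.1% and 14.5% of all genes did, with a median of 0.24.

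Of 15 chemoattractant receptors, 2 lay above without overlap, Ccrl2 among them, and Ackr3 lay below. Ccrl2, a chemerin-binding receptor, was at 997, 938 and 1472 CPM with IL22 ko T cells and 538 to 732 CPM without T cells (log2 fold change 0.82 ± 0.19, adjusted p = 0.130, edgeR), and did not pass the test. Among the 20 measured receptors for T-cell cytokines, Il21r and Tnfrsf1b lay above; Il21r was at 196, 176 and 185 CPM with IL22 ko T cells and 126 to 145 CPM without T cells, and Tnfrsf1b, the second TNF receptor, at 440, 381 and 540 CPM against 315 to 363 CPM. Il2rg, the common gamma chain, was at 100.3, 72.0 and 146 CPM against 41.3 to 80.1 CPM, overlapping only through the second female library without T cells. Cd40 and Cd274, a costimulatory receptor and a checkpoint ligand, overlapped: Cd274 was at 77.8, 37.7 and 117 CPM against 22.9 to 55.1 CPM.

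Complement, NF-kB and lipid genes gave smaller groups. The 3 chains of C1q lay above without overlap, C1qa at 6961, 6313 and 6879 CPM against 4876 to 5598 CPM, C1qb at 4887, 4358 and 4910 CPM against 3542 to 4219 CPM and C1qc at 4851, 4388 and 4726 CPM against 3731 to 4213 CPM. None of the 3 passed the test (C1qa: log2 fold change 0.35 ± 0.15, adjusted p = 0.461, edgeR). Of the 11 complement genes only these 3 lay above (4.02% of all genes) and 0 below, and 2 lay above under library totals. The list median was 0.23, and 0.21 against the low side, where 6 lay above and 3 below (17.1% and 14.5% of all genes). With the ribosomal side as a term the median was 0.03, with 6 positive and 5 negative log2 fold changes. C1q opens the classical pathway. C3, its central component, varied most within the IL22 ko group, at 271, 124 and 982 CPM against 41.9 to 244 CPM. Of 17 NF-kB and IL-17 targets, Nfkb1, Nfkb2, Tnfaip3 and Ptgs2 lay above without overlap, 1 of them under library totals, with a list median of 0.24, and 0.03 against the low side. Ptgs2, the inducible cyclooxygenase, was at 426, 353 and 678 CPM with IL22 ko T cells, 893 to 2199 CPM with total T cells and 136 to 338 CPM without T cells. The 19 cholesterol synthesis genes had a median of 0.44 with 2 above, the 25 cell cycle genes one of -0.42 with 0 outside in either direction, and the 11 costimulation genes, the 14 alternative activation genes and the 18 glycolysis genes medians of 0.24, 0.18 and 0.13 with 0 above in each. These counts turned on single libraries: without the first female IL22 ko library 8 cholesterol genes lay above, without the second female IL22 ko library 4 costimulation and 3 alternative activation genes did, and without the second male library lacking T cells 4 cell cycle genes lay below. Of all 12648 genes, 729 and 1045 lay above and 428 below in these settings, in that order. Against the low-side libraries alone 7 of the 18 glycolysis genes lay above and 0 below, where 17.1% and 14.5% of all genes did. Their median there was 0.28, and 0 had an unadjusted p under 0.05 (edgeR). With the ribosomal side as a term the median was 0.59. In that fit 10 had an unadjusted p under 0.05 (edgeR), all higher (6.86% of all genes). Of the 25 cell cycle genes 7 lay below the 2 low-side libraries and 0 above, where 14.5% and 17.1% of all genes did. Their median there was -0.41, and 1 was lower at an unadjusted p under 0.05 (edgeR), against 2.96% of all genes. With the ribosomal side as a term it was -0.51, and 4 had an unadjusted p under 0.05 (edgeR), all lower (5.19%).

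Of iron genes, Fth1 and Slc11a1 lay above and Slc40a1 and Ftl1 below. Slc40a1, the iron exporter ferroportin, was at 84.9, 60.7 and 48.1 CPM with IL22 ko T cells, 5.84 to 44.4 CPM with total T cells and 149, 127, 247, 187, 170 and 157 CPM in the 6 libraries without T cells. Slc40a1 thus lay between the others in the reverse order of Gbp4, as did 18 genes in all, 0.142%. Fth1, the ferritin heavy chain, was at 5689, 5470 and 7531 CPM against 4237 to 4917 CPM. Ftl1, the light chain, separated by ribosomal side instead: it was at 641, 538 and 591 CPM with IL22 ko T cells, 686 and 717 CPM in the low-side libraries without T cells and 2271 to 2805 CPM in the high-side ones. Its log2 fold change was -1.64 ± 0.43 against all 6 and -0.27 ± 0.15 against the low side.

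Gapdh and Rpl31 also followed the ribosomal side. Gapdh, a glycolytic enzyme, was at 40.5, 34.7 and 49.1 CPM with IL22 ko T cells, 29.5 and 27.8 CPM in the low-side libraries without T cells and 232 to 328 CPM in the high-side ones, and its log2 fold change was -2.12 against all 6 and 0.51 against the low side. The ribosomal protein gene Rpl31 was at 4.53, 3.39 and 3.46 CPM against 5.43 and 5.64 CPM on the low side and 182 to 206 CPM on the high side. For such genes a difference between the 2 groups and the ribosomal side cannot be told apart outside the low-side libraries.

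**Figure D4:**
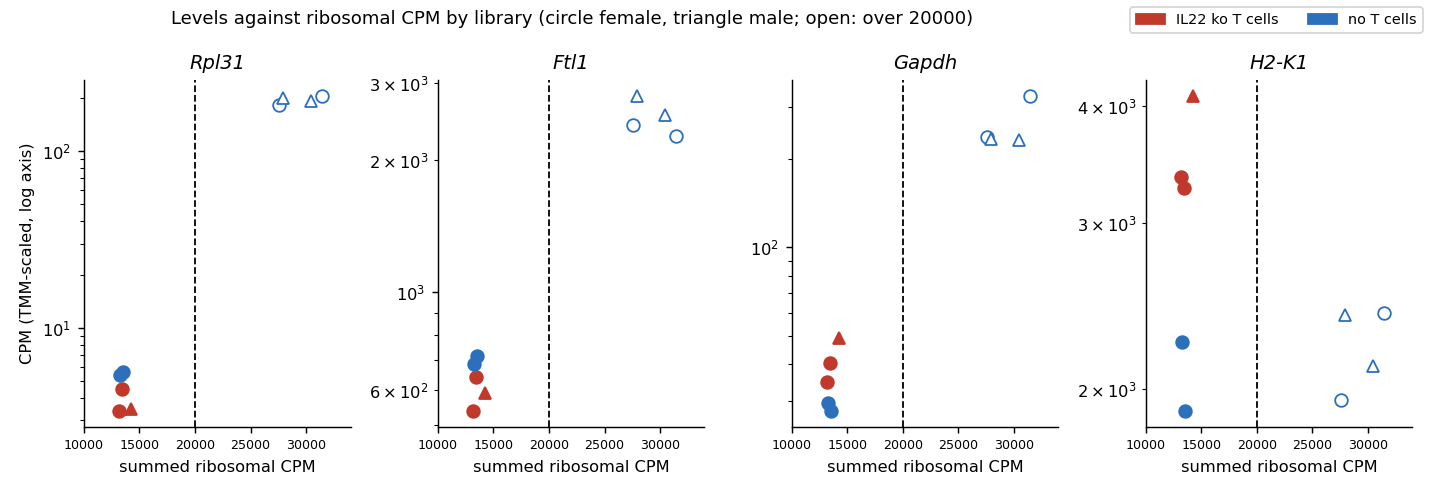
CPM (log axis) of Rpl31, Ftl1, Gapdh and H2-K1 against the summed ribosomal CPM of each library, IL22 ko T cells in red and no T cells in blue; the dashed line is at 20000. Rpl31, Ftl1 and Gapdh follow the side of the line, while for H2-K1 the 2 low-side libraries without T cells, at 2245 and 1895 CPM, lie within the range of the other blue points and just below it.

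Some genes outside the lists came close to the threshold, and were chosen after their values were seen, as were Gbp2, Gbp4, Igtp, Cxcl9, Psmb8, Nlrc5, B2m, Ciita, Cd74, H2-Ab1, Fcgr3, Fcer1g, C1qb, C1qc, Ms4a7, Slc40a1 and Rpl31 above. Tlr12, a Toll-like receptor for profilin of protozoa in mice, was at 60.1, 47.9 and 88.8 CPM with IL22 ko T cells and at 15.5, 28.3, 9.82, 13.4, 14.5 and 17.4 CPM without T cells. Mpeg1, a pore-forming protein of macrophages, was at 3237, 2743 and 3948 CPM against 1728 to 2275 CPM. Klra2, a lectin-like receptor, was at 130, 152 and 197 CPM against 47.1 to 81.7 CPM, and Mmp25, a membrane-bound matrix protease, at 28.9, 17.9 and 63.6 CPM against 3.98 to 14.7 CPM. Slc25a51, the mitochondrial NAD carrier, was the lower gene nearest the threshold, at 52.8, 57.2 and 55.7 CPM against 70.3 to 84.8 CPM. Each of these 5 genes had an adjusted p of 0.0646 (edgeR), and none overlapped between the groups. Itgax, the integrin CD11c, was at 144, 108 and 374 CPM against 57.1 to 97.6 CPM (log2 fold change 1.52 ± 0.40, adjusted p = 0.141, edgeR), and Slco3a1, an organic anion transporter, at 39.0, 32.9 and 47.0 CPM against 9.79 to 19.9 CPM (1.55 ± 0.32, adjusted p = 0.0772, edgeR). The values of Slc25a51, Tlr12 and Mpeg1 with total T cells, 49.8 to 56.9, 50.8 to 104 and 3296 to 4061 CPM, overlapped those with IL22 ko T cells.

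Markers of other cells differed between libraries. The 11 neutrophil markers summed to 2.57 to 41.9 CPM with IL22 ko T cells and 0.347 to 2577 CPM without T cells, the highest being a male library; Ly6g was at 0 with IL22 ko T cells. The 10 fibroblast markers summed to 623 to 826 CPM against 492 to 1643 CPM, and the 10 microglia markers to 2200 to 3223 CPM against 2647 to 3512 CPM. The part of these cells in the results was not tested.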

How the data were processed

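Dural macrophage RNA was measured in 27 libraries of 7 groups, of which 9 are compared here. Raw read counts per gene for 41388 gene IDs, 40254 with a symbol, were deposited by the authors; the build GRCm38 and the tools featureCounts, DESeq2 1.20.0 and STAR 2.4.0j are named there, per the submitters' processing notes. The values are whole numbers, and all 27 columns hold every count up to 20, so they were treated as raw counts although the deposited table is titled as normalized. Rows without a symbol took 0.106 to 0.143% of counts. edgeR 4.0.16 in R 4.3.3 was fitted to all 27 libraries with TMM scaling, group and sex as terms (19 residual degrees of freedom), on 12648 genes with a mean count of at least 10; the low-side repeat split each group at 20000 summed ribosomal CPM (17 residual degrees of freedom). CPM shown are TMM-scaled, and coordinates are GRCm38. Alternatives used RLE scaling, DESeq2 1.42.0, other filters, other samples and each library left out. The scripts were tested on simulated data. The comparison and gene lists were chosen with earlier results of these data known. Named were called genes, the 3 members of each list with the smallest p and a fixed set of interleukin-22, sex and T-cell genes; others are said to be chosen after their values were seen. Within groups, all pairs of libraries differed by more than counting noise (chi-square per degree of freedom 8.97 or more), so no pair was treated as repeats of 1 library; this does not show that they came from separate animals. Some genes are not reported here.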

Additional observations from a re-analysis of the deposited data

Results flagged for a closer look

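Of 95 named genes tested, 12 had a library without T cells that stood apart from the other 5 (gap over range above Dixon's 95% limit for 6 samples); chance flags about 1 in 20 groups, and genes that vary together are flagged together. The second female library without T cells was the highest of its group for Serpina3g (31.0 CPM), Slamf8 (89.3), H2-DMb1 (477), Tap1 (275), F10 (13.9), Cd274 (55.1), Il2rg (80.1), Cxcl9 (142) and Itgax (97.6). The second male library was the highest for Cxcl13 (16.8 CPM), and the first male library for S100a8 (353) and S100a9 (469), which are neutrophil genes. Groups of 3, such as the IL22 ko libraries, were not tested in this way.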

How the results depend on the processing

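No paired analysis was possible because the column names carry none of the replicate numbers in the titles. The count of genes called against all 6 libraries without T cells was 1, and 144 with DESeq2, 499 with no filter on low counts, 4 at a mean count of at least 50, 9 with no sex term, 0 in female libraries only, 42 with only these 2 groups fitted, 29 with the ribosomal side as a term, and, chosen after seeing the data, 0 in libraries under the ribosomal limit and 391 with DESeq2 on these 2 groups; leaving out 1 library gave 0 to 10. Against the low-side libraries it was 0, and 46 with DESeq2, 337 with no filter, 2 at a mean of at least 50, 67 with only these 2 groups, 220 with DESeq2 on them (added after seeing the data) and 0 to 5 with 1 library left out. IL22 ko against total T cells gave 11, and 4 with RLE, 730 with DESeq2, 1219 with no filter, 157 at a mean of at least 50, 4 with no sex term, 0 in females only, 0 with only these 2 groups, 1 with the ribosomal side as a term and 1 to 795 with 1 library left out (795 without the third and 609 without the last female total T-cell library, the 2 of that group on the low ribosomal side). Genes without overlap, all alternatives added after seeing the data, numbered 509 above and 326 below, 260 and 628 under library totals, 2165 and 1831 against the low side alone, 1115 and 995 against the high side alone, and 566 to 1045 above and 385 to 734 below with 1 library left out. Leaving out a library can only raise or keep such counts, so it is no test of the lists. Fc receptors stayed at 5 above. Those above reached at most 19 for MHC class I, 18 for interferon-gamma and 6 for complement. They reached at most 5 each for chemokines and cytokine receptors and 4 for costimulation. These 6 maxima were seen without the second female IL22 ko library. The most for cholesterol was 8, without the first female IL22 ko library. The most for class II was 9, without the second male library lacking T cells. For chemoattractant receptors it was 5, without the second female library lacking T cells. Those below reached at most 9 for border macrophage and 4 each for type I interferon and cell cycle genes. With edgeR on these 2 groups alone 6 MHC class I, 7 class II and 6 interferon-gamma genes were called, all higher. With DESeq2 on all groups 5, 2 and 5 were called. Of all genes, 0.331% and 1.14% were called in these fits, in that order. The log2 fold change changed sign for F10 in females only (-0.67) and without the male IL22 ko library (-0.42; -0.42 to 2.50 over the libraries left out), for Gapdh with the ribosomal side as a term (0.75) and in libraries under the limit (0.48), for Stat3 in the same settings (-0.0055 and -0.17), and, against the low side without the third female library lacking T cells, for Cmpk2 (0.46; -0.82 to 0.46 over the libraries left out) and Socs3 (0.083; -0.19 to 0.083). Where no value is given for a cause, the cause was not tested. With 2 low-side libraries without T cells, both female, the low-side comparison rests on little replication, and sex is estimated from the other groups.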

Other observations

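Ttr and Enpp2, a carrier and an enzyme known from the choroid plexus, were seen in 1 IL22 ko library above all: Ttr was at 0.725, 160 and 10.3 CPM with IL22 ko T cells and at most 1.96 CPM without T cells, and Enpp2 at 0.363, 68.1 and 5.69 CPM and at most 3.12 CPM. Both were chosen after their values were seen.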
